A study of Neurospora crassa with 8 samples.

Results

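Neurospora crassa, a filamentous ascomycete, was grown with and without iron, and the response of the ve-1 mutant is described here. The comparison rests on 4 of the 8 libraries of the series, 2 from ve-1 cultures in iron-free medium and 2 from ve-1 cultures in standard medium, chosen by genotype and medium as labelled. The other 4 libraries, 2 of wild type in iron-free and 2 of wild type in standard medium, entered the same fit and are used below only where the mutant is set beside wild type. All cultures started from conidia, the asexual spores, were shaken for 48 hours at 32 °C in Vogel's minimal medium with 1.5% sucrose, and were harvested as mycelia. Iron-free medium left out the iron, and its glassware had been treated with 1 mM EDTA and then with 5% HCl. The ve-1 cultures of both media carry the same mutation, so the comparison is one of medium within the mutant; the nature of the allele is not given in the sources used here. Poly(A) RNA was sequenced, and reads were counted per gene. Levels are CPM, counts scaled to a common library size, after TMM scaling, which also corrects for composition.

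Iron is needed for heme, for iron-sulfur clusters and for enzymes that bind iron directly, so respiration, sterol synthesis and the removal of peroxide depend on it. In filamentous fungi a GATA factor, named SRE in N. crassa, is known to repress the synthesis of siderophores, the small molecules that capture iron, when iron is plentiful. VE-1 belongs to the velvet family of fungal regulators, which are known for their roles in spore formation, sexual development and secondary metabolism.

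Total counts were 7350345 and 10192729 in the ve-1 iron-free libraries and 7306572 and 6654585 in the ve-1 standard libraries, within the range of the series (6654585 to 10192729). Of 9730 genes, 8118 passed the filter on low counts and were tested. Transcripts of ve-1 itself stayed near the bottom in all 4 libraries, with 15 and 80 counts in iron-free and 20 and 28 counts in standard medium, against 2977 and 1931 counts in wild type without iron and 1077 and 1533 counts in wild type with it. The cultures of one group are duplicates by the design text. In their names the deposited files give 1 number to both replicate 1 libraries of a genotype and another to both replicate 2 libraries, and what that number stands for is not given in the sources used here. No library repeats another: between the ve-1 replicates, chi-square over its degrees of freedom was 171.2 without iron and 39.27 with it, so each library counts as 1 sample.

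Mating genes set the ve-1 libraries apart from each other in a way the labels do not mention. The mating-type gene matA-1 had 1 and 5 counts in the iron-free libraries, against 0 and 403 counts in the standard ones. In wild type it had 74 and 0 counts without iron and 118 and 0 with it, so that replicate 1 was the one with counts in both media; in ve-1 replicate 2 was the higher in both media, at very different levels. The pheromone gene mfa-1 had 557 and 180 counts without iron, against 14700 and 54 in standard medium, and the pheromone gene ccg-4 had 3 and 15 counts, against 0 and 871. In both media mfa-1 was thus the higher in ve-1 replicate 1, and ccg-4 and matA-1 in ve-1 replicate 2. The gaps were wide in standard medium, while both iron-free libraries were low in ccg-4 and matA-1. Whether the replicate number marks a mating type was not tested. The part that these differences play in the results below was not tested either. Counts are given without each of these libraries.

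The summed level of spore markers also differed between the media. Of 10 markers of conidia, 3 were called lower without iron and 0 higher (11.6% and 10.9% of all tested genes), and 1 of the 10 was at 0 counts in a library. Their summed level was 58010 and 4684 CPM in the iron-free libraries, against 111288 and 126219 CPM in standard medium; without eas, the hydrophobin of the spore coat, it was 6484 and 2199 CPM against 19506 and 24974 CPM. The sum is lower in both iron-free libraries than in both standard ones, and eas itself spread widely without iron (51526 and 2485 CPM, against 91783 and 101246 CPM, adjusted p = 0.313). The 5 markers of sexual tissue were asd-1, asd-3, matA-1, fmf-1 and poi-2. Of these, 2 were called lower and 0 higher, while 2 were at 0 counts in a library. Their summed level was 25.7 and 27.5 CPM without iron, against 658 and 152 CPM with it. Of the standard sums poi-2 alone made up 633 and 71.3 CPM, and matA-1 differed between replicates as given above. The wild-type sums went the other way, at 483 and 356 CPM without iron and 124 and 259 CPM with it. In bulk RNA, fewer spores or hyphae of a kind and less RNA per cell cannot be told apart, and the part of these markers in the other results was not tested.

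Iron absence changed a large share of the transcriptome in ve-1. By edgeR's quasi-likelihood test at a Benjamini-Hochberg adjusted p under 0.05, 1822 of 8118 genes (22.4%) were called, 881 higher (10.9%) and 941 lower (11.6%). A change of at least 2-fold was seen in 1549 of them. In 68.7% of all tested genes the libraries of the 2 media did not overlap. With 2 libraries a side unchanged genes often do not overlap either, so that share is no count of changed genes. The genes with the largest changes included rises in nmt-1, a thiamine synthesis gene, fdh, the formate dehydrogenase gene, and erg-3, a sterol reductase gene, and falls in sre, in the sulfate permease gene cys-14 and in the conidiation gene con-6.  The number of calls depended on single libraries and was 1469 without iron-free replicate 1, 373 without iron-free replicate 2, 59 without standard replicate 1 (6 higher and 53 lower, with 1957 genes at an unadjusted p under 0.05), and 554 without standard replicate 2. With the replicate number as a block it was 1235, of which 548 were higher and 687 lower. Scaling by total counts moved the median of all genes by 0.30 on the log2 scale and gave 1418 higher and 679 lower; directions below are relative to TMM. The authors' deposited table for the same comparison lists 1837 genes, 760 higher and 1077 lower without iron; all 1831 of them that were tested here had the same sign, and 1461 were called here too.

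**Figure D1:**
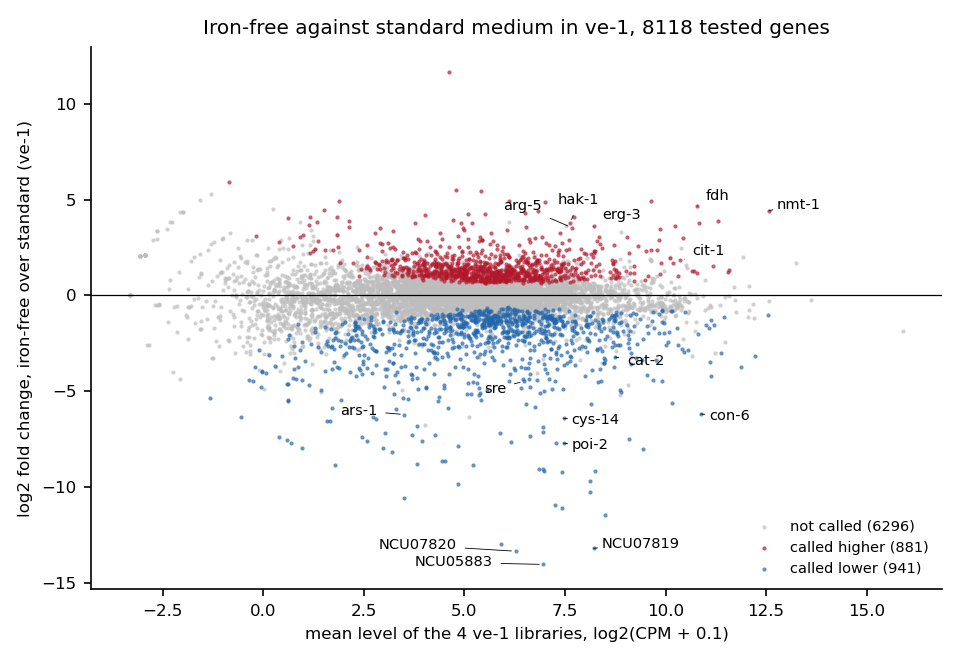
Log2 fold change of ve-1 iron-free over ve-1 standard cultures (vertical axis) against the mean level of the 4 ve-1 libraries, as log2(CPM + 0.1), for 8118 genes. Red points are the 881 genes called higher, blue points the 941 called lower and grey points those not called; the point at the top is NCU03376, with 0 counts in both standard libraries.

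Gene lists were built from gene symbols, and 34 of 35 held a tested gene. In the full fit 30 of these 34 lists had a called member, and 3 of them (iron regulation, conidiation and sulfur metabolism) had one without standard replicate 1. By the naming rule 111 genes were picked out, of which 99 were called. For those picked as largest changes, lack of overlap between the media was required and is no added support. With a symbol these were poi-2, cys-14, con-6, con-10, mig-12, sre, pmg, mus-18, ena-1 and mig-2 among falls. Among rises they were ci-1, fdh, nmt-1, hak-1, erg-3, arg-5, arg-4, am, nit-3 and acw-12. Without standard replicate 1, 9 of these 99 calls held; 51 held without standard replicate 2, 71 without iron-free replicate 1, 36 without iron-free replicate 2 and 90 without each of the 4 wild-type libraries in turn. With the replicate number as a block 20 of the 99 were lost, those of qcr8, phy-1, pre-2, ena-1, mig-2, acw-12, ncw-6, pma-1, hsp70-1, crp-3, crp-4, tim9, tim13, tim44, vma-3, vma-16, pex5, hH2A, hH2B and hH2Az. The 8 calls that held whichever library was left out were those of sre, cys-14, ars-1, cys-16, ccg-9, NCU05883, NCU07819 and NCU07820, all lower without iron. Of the named genes, 27 overlap another annotated gene, and since the strand setting of the counting is not stated, their values are uncertain: con-6, nuo21.3a, nuo10.6, nuo10.4, nde-1, tca-5, ilv-4, ilv-6, pma-1, acw-12, ncw-5, gh28-2, pho-4, mig-2, hH2A, hH2B, hH2Az, tim44, tim13, crp-3, pks-1, vma-3, vma-9, vma-16, pex5, NCU05068 and NCU05883.

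The iron list held 1 gene with a symbol, the GATA factor gene sre. Its level was 7.28 and 7.95 CPM in ve-1 without iron, against 151 and 191 CPM in standard medium. Both iron-free libraries lay far below both standard ones, and the spread within each medium was small beside the gap (log2 fold change -4.48 with SE 0.35, adjusted p = 0.00256). Wild type showed levels of 8.12 and 13.1 CPM without iron and 172 and 117 CPM with it (log2 fold change -3.77). The difference between the genotypes did not pass (-0.71, SE 0.44, adjusted p = 0.391). Siderophore and iron uptake genes carry no symbol in the table used and were not analysed here.

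**Figure D2:**
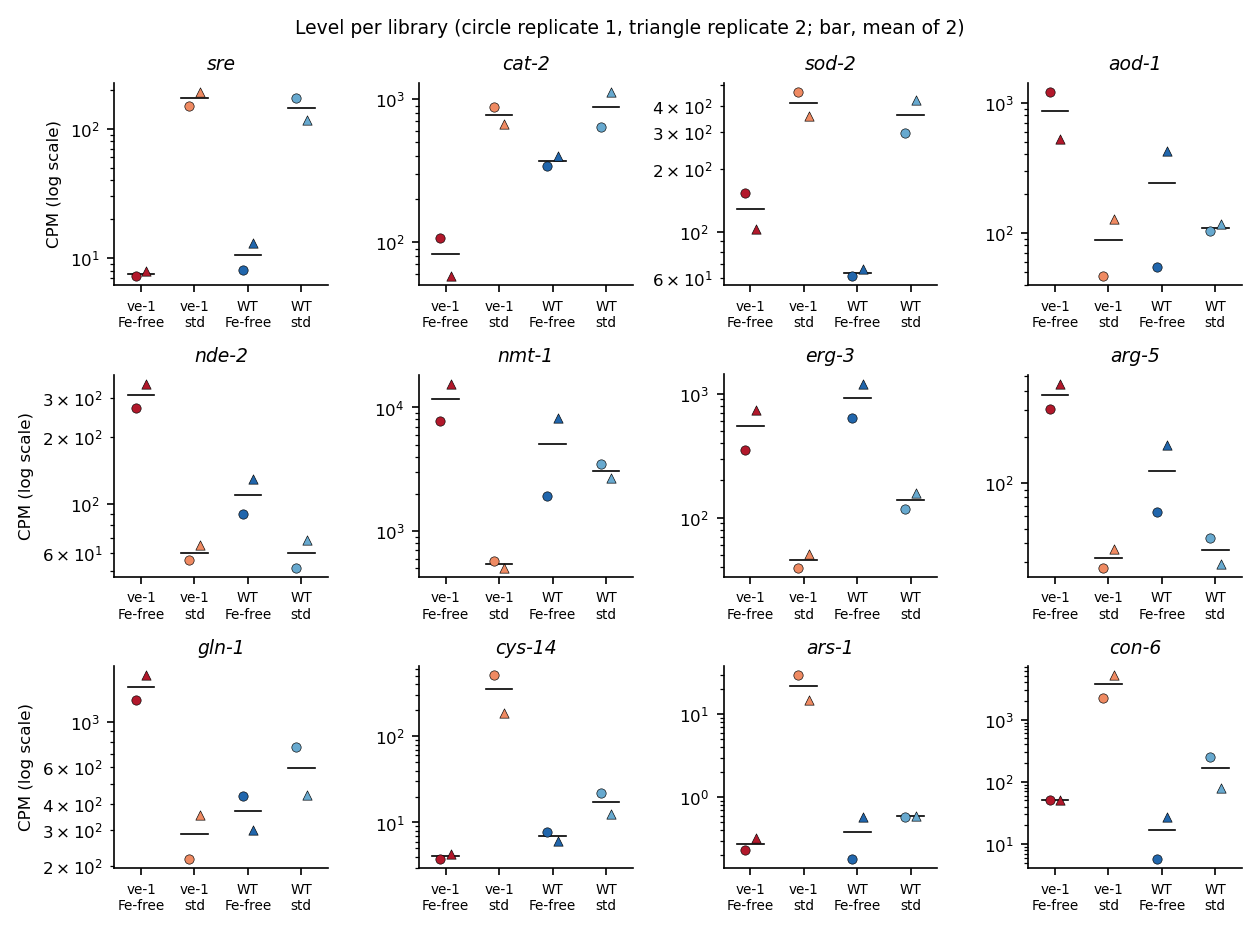
CPM on a log axis for 12 genes in each library, with ve-1 iron-free, ve-1 standard, wild-type iron-free and wild-type standard cultures from left to right. Circles are replicate 1, triangles replicate 2 and bars the mean of 2; for sre, cat-2 and sod-2 both ve-1 iron-free points lie below both ve-1 standard points, and for nde-2, nmt-1, erg-3, arg-5 and gln-1 both lie above.

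Genes of peroxide and superoxide removal were lower without iron where they changed. Of 7 antioxidant genes, 3 were called lower and 0 higher in ve-1 (background 11.6% and 10.9%), with a median log2 fold change of -1.59 beside 0.02 over all tested genes. The catalase-peroxidase gene cat-2 was at 108 and 58.0 CPM without iron, against 875 and 675 CPM with it (log2 fold change -3.22 with SE 0.43, adjusted p = 0.00824). The catalase gene cat-1, known from conidia, was at 600.4 and 91.6 CPM, against 2178 and 2581 CPM (log2 fold change -2.78 with SE 0.75, adjusted p = 0.0389). The gene of the mitochondrial superoxide dismutase, sod-2, was at 154 and 103 CPM, against 463 and 357 CPM (log2 fold change -1.68 with SE 0.31, adjusted p = 0.0141). In all 3 the media did not overlap, though the iron-free libraries of cat-1 lay far apart. The other 4 were not called. The catalase gene cat-4 had 169 and 30.3 CPM without iron and 276 and 321 CPM with it, and the superoxide dismutase gene sod-1 had 244 and 349 CPM without iron and 568 and 399 CPM with it. The catalase gene cat-3 (adjusted p = 0.79) and the thioredoxin gene trx (adjusted p = 0.978) overlapped between the media. The number called lower was 3, 2, 0 and 2 without iron-free replicate 1, iron-free replicate 2, standard replicate 1 and standard replicate 2, and 3 with the replicate block.

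Most genes of complex I, the proton-pumping NADH dehydrogenase of mitochondria, rose in ve-1 without iron. Of 29 subunit genes, 18 were called higher and 0 lower (background 10.9% and 11.6%), and the median log2 fold change was 1.06. The 4 largest rises were in nuo21.3a, nuo10.4, nuo10.6 and nuo29.9. Transcripts of nuo21.3a were at 227 and 169.9 CPM without iron, against 46.7 and 70.6 CPM with it (log2 fold change 1.76 with SE 0.28, adjusted p = 0.0103). Those of nuo10.4 were at 127 and 120.3 CPM, against 30.0 and 43.4 CPM (log2 fold change 1.75 with SE 0.24, adjusted p = 0.00844), and those of nuo29.9 at 227 and 201 CPM, against 57.9 and 85.3 CPM (log2 fold change 1.58 with SE 0.27, adjusted p = 0.0117). In each of these the iron-free libraries lay above both standard ones. The smallest fold changes of the list were in nuo21.3c (-0.05), nuo19.3 (0.01) and nuo51 (0.07), whose libraries overlapped between the media.

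Summed over the 29 genes, complex I transcripts came to 4134 and 3296 CPM in ve-1 without iron, against 1615 and 2155 CPM in ve-1 with iron. The wild-type sums were 3514 and 3755 CPM without iron and 3814 and 4486 CPM with it. The 2 ve-1 standard libraries were thus the lowest of the 8, and the ve-1 iron-free sums lay within or below the wild-type range. In wild type 0 of 29 genes were called in either direction (background 1.47% higher and 5.1% lower), and the median log2 fold change was -0.11. Tested directly, the difference between the genotypes was above 0 for 29 of 29 genes. It was called for 0 by edgeR at the adjusted threshold, for 22 at an unadjusted p under 0.05 and for 9 by DESeq2. Over all 8118 tested genes these numbers were 20, 1650 and 601, and the median difference was 0.07. The number called higher in ve-1 was 11, 9, 0 and 11 without iron-free replicate 1, iron-free replicate 2, standard replicate 1 and standard replicate 2, while the list's median stayed between 0.88 and 1.28 over all left-out libraries. With the replicate block 12 were higher.

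**Figure D3:**
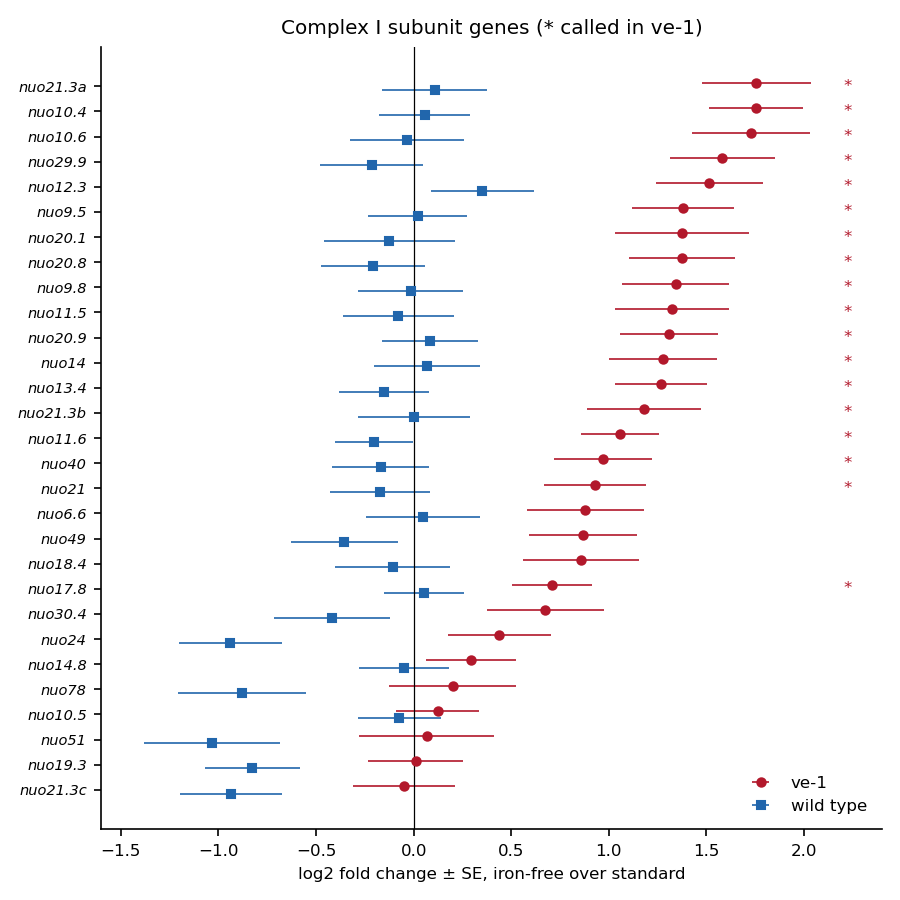
Log2 fold change of iron-free over standard medium (horizontal axis) for the 29 complex I subunit genes, with ve-1 as red circles above wild type as blue squares in each row. Bars are SE, derived from the F value of the test. Asterisks mark the 18 genes called in ve-1; in wild type none was called, and each red circle lies right of its blue square.

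Of 9 genes of complexes II to IV and cytochrome c, 2 were called higher and 0 lower in ve-1 (10.9% and 11.6% of all tested genes), with a median log2 fold change of 0.27. The cytochrome c1 gene cyt-1 was at 60.4 and 68.5 CPM without iron, against 20.5 and 25.6 CPM with it (log2 fold change 1.48 with SE 0.25, adjusted p = 0.0117), and qcr8, a subunit gene of complex III, was at 315 and 332 CPM, against 127 and 206 CPM (log2 fold change 0.96 with SE 0.28, adjusted p = 0.0467). The cytochrome c gene cyc-1 overlapped between the media, at 133 and 74.6 CPM without iron and 119 and 249 CPM with it. In wild type 0 were called higher and 4 lower (1.47% and 5.1% of all tested genes). The genotype difference was above 0 for 9 of 9 genes. It was called for 0 by edgeR, 8 at an unadjusted p under 0.05 and 5 by DESeq2, beside 20, 1650 and 601 of all 8118 tested genes. The number higher in ve-1 was 1, 0, 0 and 1 without iron-free replicate 1, iron-free replicate 2, standard replicate 1 and standard replicate 2, and 1 without any wild-type library or with the replicate block.

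Alternative respiration bypasses the pumping complexes through the alternative oxidase and through NADH dehydrogenases that move no protons. Of 8 genes, 2 were called higher and 0 lower (10.9% and 11.6% of all tested genes). The external NADH dehydrogenase gene nde-2 was at 268 and 346 CPM in ve-1 without iron, against 55.8 and 65.1 CPM with it (log2 fold change 2.35 with SE 0.29, adjusted p = 0.00663), and nde-1 was at 98.8 and 91.6 CPM, against 34.6 and 43.1 CPM (log2 fold change 1.29 with SE 0.29, adjusted p = 0.0223). The alternative oxidase gene aod-1 was at 1205 and 524 CPM, against 46.4 and 129 CPM, and the related gene aod-3 at 149 and 109 CPM, against 1.67 and 16.4 CPM. For both oxidase genes each iron-free library lay above each standard one, but the test missed the threshold (log2 fold changes 3.30 and 3.85, SE 0.98 and 1.17, adjusted p = 0.0501 and 0.0539). With DESeq2, 4 of the 8 genes were higher, and with the 4 ve-1 libraries fitted alone or with total-count scaling 5 were. The internal dehydrogenase gene ndi-1 had 82.6 and 108 CPM without iron and 45.9 and 37.4 CPM with it (adjusted p = 0.203), and nde-3 had 39.2 and 26.5 CPM without iron and 17.3 and 20.9 CPM with it (adjusted p = 0.0661). The regulator genes aod-2 and aod-5 were not called (log2 fold changes -0.27 and -0.12, adjusted p = 0.46 and 0.666). The number called higher was 1, 1, 0 and 1 without iron-free replicate 1, iron-free replicate 2, standard replicate 1 and standard replicate 2, 3 with the replicate block, and 4 without either wild-type iron-free library.

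Of 17 genes of the tricarboxylic acid cycle, 7 were called higher and 2 lower, against 10.9% higher and 11.6% lower over all tested genes, with a median log2 fold change of 0.42. The largest rises were in tca-5 (1212 and 1233 CPM without iron, against 136 and 346 CPM with it; log2 fold change 2.34 with SE 0.43, adjusted p = 0.0136) and tca-15 (1344 and 2159.6 CPM, against 443 and 458 CPM; log2 fold change 1.96 with SE 0.31, adjusted p = 0.0102). The citrate synthase gene cit-1 was at 2056 and 2071 CPM, against 529 and 638 CPM (log2 fold change 1.82 with SE 0.27, adjusted p = 0.00959). The 2 falls were in tca-11, at 24.8 and 33.2 CPM against 127 and 161 CPM (log2 fold change -2.31 with SE 0.51, adjusted p = 0.0216), and tca-13, at 44.4 and 35.4 CPM against 137 and 168 CPM (log2 fold change -1.94 with SE 0.29, adjusted p = 0.00922). In all 5 genes the media did not overlap. The 2 genes that fell in ve-1 also fell in wild type, with log2 fold changes of -5.35 and -3.81. In all, wild type had 0 of 17 genes higher and 5 lower (1.47% and 5.1% of all tested genes). The genotype difference was above 0 for all 17. It was called for 0 by edgeR and for 9 both at an unadjusted p under 0.05 and by DESeq2. Over all 8118 tested genes these numbers were 20, 1650 and 601. The number higher was 5, 2, 0 and 2 and the number lower 1, 0, 0 and 1 without iron-free replicate 1, iron-free replicate 2, standard replicate 1 and standard replicate 2.

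Among 6 genes of acetate use, 1 was called higher and 0 lower in ve-1 (10.9% and 11.6% of all tested genes). DESeq2 called 3 higher, and total-count scaling or leaving out standard replicate 2 gave 2. It was the acetyl-CoA hydrolase gene acu-8, at 1185 and 1711 CPM without iron, against 374 and 532 CPM with it (log2 fold change 1.68 with SE 0.37, adjusted p = 0.021). Transcripts of acu-6, for phosphoenolpyruvate carboxykinase, were at 8384 and 4042 CPM, against 434 and 2678 CPM; the media did not overlap, but the standard libraries lay far apart and the gene was not called (adjusted p = 0.111). Neither of acu-3 and acu-9, of the glyoxylate cycle, was called (adjusted p = 0.67 and 0.1). Wild type had 0 higher and 4 lower of the same 6 (1.47% and 5.1% of all tested genes). The wild-type log2 fold changes were -4.39 for acu-6 and -3.82 for acu-3. The genotype difference was called for 0 of the 6 by edgeR, for 6 at an unadjusted p under 0.05 and for 5 by DESeq2. Over all 8118 tested genes these numbers were 20, 1650 and 601. The acu-8 call was lost without iron-free replicate 2 or either standard library (adjusted p from 0.0647 to 0.15).

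All 3 tested genes of ergosterol synthesis, the pathway of the fungal membrane sterol, were called higher, against 10.9% of all tested genes. The sterol C-14 reductase gene erg-3 was at 354 and 746 CPM in ve-1 without iron, against 39.5 and 51.1 CPM with it (log2 fold change 3.60 with SE 0.49, adjusted p = 0.00844). The gene erg-1 was at 403 and 743 CPM, against 81.0 and 100.2 CPM (log2 fold change 2.66 with SE 0.47, adjusted p = 0.0128), and erg-4 was at 97.4 and 101 CPM, against 19.8 and 44.4 CPM (log2 fold change 1.63 with SE 0.36, adjusted p = 0.0209). In each gene both iron-free libraries were above both standard ones. In wild type erg-3 and erg-1 were called higher as well (log2 fold changes 2.73 and 1.99). The number higher in ve-1 was 3, 1, 0 and 2 without iron-free replicate 1, iron-free replicate 2, standard replicate 1 and standard replicate 2, and the list's median stayed between 2.16 and 3.04.

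A list of 9 biosynthetic enzymes, several of which need iron, had 3 members called higher and 2 lower (10.9% and 11.6% of all tested genes). The nitrate reductase gene nit-3 was at 230.1 and 457 CPM without iron, against 15.9 and 76.0 CPM with it (log2 fold change 2.90 with SE 0.72, adjusted p = 0.0296). The isopropylmalate dehydrogenase gene leu-1 was at 232 and 703 CPM, against 109.7 and 126 CPM (log2 fold change 1.99 with SE 0.51, adjusted p = 0.0319). The third rise was in un-24, for the large subunit of ribonucleotide reductase (log2 fold change 1.43, adjusted p = 0.0238). The falls were in cys-2 and cys-4, known from mutants blocked in sulfite reduction, with 111 and 115 CPM against 528 and 355 CPM for cys-2 and 246 and 247 CPM against 817 and 517 CPM for cys-4 (log2 fold changes -1.97 and -1.44). The media did not overlap in any of these 5 genes. The list median was -0.03, and its sign changed with total-count scaling (0.28), which called 3 higher and 1 lower. Without iron-free replicate 2 or standard replicate 1, 0 of the 5 calls were left.

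Of 17 genes of arginine and lysine synthesis, 8 were called higher in ve-1 without iron and 1 lower (10.9% and 11.6% of all tested genes), with a median log2 fold change of 1.38. Transcripts of arg-5 were at 303 and 444 CPM without iron, against 27.7 and 36.5 CPM with it (log2 fold change 3.54 with SE 0.53, adjusted p = 0.00985). Those of arg-4 were at 223 and 213 CPM, against 17.7 and 34.8 CPM (log2 fold change 3.05 with SE 0.43, adjusted p = 0.00873). The list also holds am, the glutamate dehydrogenase gene that uses NADP, at 1024 and 3856 CPM against 148 and 469 CPM (log2 fold change 2.98 with SE 0.73, adjusted p = 0.0291). In all 3 the iron-free libraries lay above the standard ones, and those of am lay far apart. The 1 fall was in ota, for ornithine transaminase, an enzyme of arginine use and not of its synthesis, at 5.87 and 14.9 CPM against 63.6 and 62.1 CPM (log2 fold change -2.58 with SE 0.50, adjusted p = 0.0164). Wild type had 1 gene higher, arg-4 (314 and 311 CPM without iron and 52.6 and 104 CPM with it), and 1 lower, ota (log2 fold change -4.36). Over all tested genes the wild-type shares were 1.47% higher and 5.1% lower. The number higher in ve-1 was 9, 3, 0 and 3 without iron-free replicate 1, iron-free replicate 2, standard replicate 1 and standard replicate 2, and the median stayed between 0.71 and 1.85.

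Of 9 genes listed under leucine, valine and isoleucine synthesis, 5 were called higher and 0 lower (10.9% and 11.6% of all tested genes), with a median log2 fold change of 1.47. They were ilv-4 (301 and 678 CPM without iron, against 88.4 and 121 CPM with it; log2 fold change 2.22 with SE 0.46, adjusted p = 0.019), ilv-6 (56.3 and 99.2 CPM, against 17.4 and 22.5 CPM; log2 fold change 1.96 with SE 0.34, adjusted p = 0.0117), leu-1, leu-5 and leu-6. The last 2 do not act in synthesis: they are known as leucyl-tRNA synthetase genes, and leu-5 was at 55.8 and 48.9 CPM against 17.4 and 20.5 CPM. Each of these lay higher in both iron-free libraries than in both standard ones. Wild type had 0 of the 9 called. The number higher in ve-1 was 6, 2, 0 and 2 without iron-free replicate 1, iron-free replicate 2, standard replicate 1 and standard replicate 2.

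Among 12 genes of nitrogen metabolism, 4 were called higher and 1 lower (10.9% and 11.6% of all tested genes). The glutamine synthetase gene gln-1 was at 1271 and 1679 CPM in ve-1 without iron, against 216 and 353 CPM with it (log2 fold change 2.37 with SE 0.41, adjusted p = 0.0117). With am and nit-3, given above, and nmr, a negative regulator of nitrogen use (log2 fold change 1.01), it made up the rises. The xanthine dehydrogenase gene xdh-1, an enzyme with iron-sulfur clusters, was at 15.7 and 13.2 CPM, against 70.0 and 53.0 CPM (log2 fold change -2.09 with SE 0.32, adjusted p = 0.00985), with no overlap. Wild type had 0 called. The number higher in ve-1 was 4, 0, 0 and 3 without iron-free replicate 1, iron-free replicate 2, standard replicate 1 and standard replicate 2.

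Genes of sulfur uptake were among the largest falls. Of 19 genes, 6 were called lower and 3 higher (11.6% and 10.9% of all tested genes), with a median log2 fold change of -0.09 that turned positive (0.22) with total-count scaling. The sulfate permease gene cys-14 was at 3.76 and 4.34 CPM in ve-1 without iron, against 512 and 188 CPM with it (log2 fold change -6.42 with SE 0.60, adjusted p = 0.00392). The arylsulfatase gene ars-1 was at 0.235 and 0.321 CPM, against 29.7 and 14.8 CPM (log2 fold change -6.22 with SE 0.65, adjusted p = 0.00422), and cys-16 was at 60.5 and 64.2 CPM, against 900.4 and 406 CPM (log2 fold change -3.39 with SE 0.40, adjusted p = 0.00559). In these 3 genes the 2 iron-free libraries lay close together, well below both standard libraries, of which replicate 1 was the higher in each. The F-box gene scon-2, a negative regulator of sulfur uptake, fell as well (47.8 and 43.1 CPM, against 389 and 172 CPM; log2 fold change -2.63 with SE 0.38, adjusted p = 0.00904). The gene of the activator of this system, cys-3, overlapped between the media at 221 and 266 CPM without iron and 343 and 252 CPM with it.

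The wild-type levels of the sulfur genes were low in both media. They were 7.85 and 6.07 CPM without iron and 22.0 and 12.5 CPM with it for cys-14. For ars-1 they were 0.18 and 0.584 CPM without iron and 0.578 and 0.604 CPM with it, and for cys-16 25.9 and 29.9 CPM without iron and 17.6 and 16.2 CPM with it. For cys-14 and ars-1 the ve-1 iron-free libraries lay within or below the wild-type range and the ve-1 standard libraries above it; for cys-16 all 4 ve-1 libraries lay above. The genotype difference passed for 1 of 19 genes, cys-16 (-4.11, SE 0.54, adjusted p = 0.0444), beside 0.246% of all tested genes. It reached adjusted p = 0.0634 for cys-14 and 0.0854 for ars-1. Rises in ve-1 were in met-7, eth-1 and cys-18, with log2 fold changes of 1.48, 1.39 and 1.18; eth-1 is the S-adenosylmethionine synthetase gene. Without standard replicate 1 the 4 falls still called were cys-14, ars-1, cys-16 and scon-2. The number lower was 5, 3, 4 and 5 and the number higher 3, 0, 0 and 0 without iron-free replicate 1, iron-free replicate 2, standard replicate 1 and standard replicate 2.

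The largest rises with a symbol included ci-1, fdh and nmt-1, which stand on no list. The formate dehydrogenase gene fdh was at 5845 and 978 CPM without iron, against 117 and 152 CPM with it (log2 fold change 4.66 with SE 0.99, adjusted p = 0.0202). The thiamine synthesis gene nmt-1 was at 7718 and 15564 CPM, against 576 and 508 CPM (log2 fold change 4.42 with SE 0.74, adjusted p = 0.0116). Transcripts of ci-1 were at 109.9 and 159 CPM, against 5.16 and 3.78 CPM (log2 fold change 4.90 with SE 1.02, adjusted p = 0.0197). The media did not overlap, which the naming rule required. The iron-free libraries of fdh differed by far more than those of nmt-1 or ci-1. The 3 largest rises by the rule were in NCU05277 (58.1 and 49.0 CPM, against 1.12 and 1.26 CPM), NCU05068 (132 and 34.9 CPM, against 2.37 and 1.42 CPM) and NCU08413 (861 and 2232 CPM, against 36.8 and 65.3 CPM), with log2 fold changes of 5.48, 5.43 and 4.92. None of these 6 calls held without standard replicate 1, with adjusted p there from 0.0759 for NCU05068 to 0.142 for fdh.

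Of 15 ion transport genes, 3 were called higher and 4 lower (10.9% and 11.6% of all tested genes). The potassium transporter gene hak-1 was at 542 and 194 CPM in ve-1 without iron, against 20.2 and 34.3 CPM with it (log2 fold change 3.76 with SE 0.63, adjusted p = 0.0117). The sodium pump gene ena-1 was at 14.4 and 158 CPM, against 1369.6 and 699 CPM (log2 fold change -3.58 with SE 1.03, adjusted p = 0.0457), and cax, for a calcium exchanger, was at 117 and 71.7 CPM, against 506 and 367 CPM (log2 fold change -2.21 with SE 0.32, adjusted p = 0.00903). The media did not overlap in any of these, which for hak-1 and ena-1 the naming rule required. The phosphate permease gene pho-4 fell too (log2 fold change -4.09, adjusted p = 0.0237). The copper transporter genes split, with tcu-1 lower and tcu-2 higher (-1.73 and 1.56), and the zinc transporter gene tzn-1 was higher (1.67). Wild type had 0 higher and 6 lower of the 15 (1.47% and 5.1% of all tested genes). Without standard replicate 1, 0 of the 7 ve-1 calls were left. Of the 3 genes listed as amino acid permeases 1 was called, pma-1, which is known as the plasma membrane proton pump (4575 and 3869 CPM, against 1713 and 1907 CPM; log2 fold change 1.22), while pmg, a general amino acid permease gene outside that list, was at 4.58 and 7.31 CPM, against 171 and 90.6 CPM (log2 fold change -4.44 with SE 1.11, adjusted p = 0.0301).

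Conidiation genes fell where they changed. Of 21 genes, 7 were called lower and 0 higher (11.6% and 10.9% of all tested genes), with a median log2 fold change of -1.20. The gene con-6 was at 50.4 and 51.3 CPM in ve-1 without iron, against 2228 and 5209 CPM with it (log2 fold change -6.19 with SE 1.00, adjusted p = 0.0113). Transcripts of con-10 were at 76.0 and 15.2 CPM, against 1172 and 3287 CPM (log2 fold change -5.61 with SE 0.99, adjusted p = 0.0132), and those of con-8 at 1378 and 548 CPM, against 8886 and 8353 CPM (log2 fold change -3.16 with SE 0.68, adjusted p = 0.0209). In these con genes both iron-free libraries lay far below both standard ones. The trehalose synthase gene ccg-9 was at 205 and 169.8 CPM, against 1132 and 1015 CPM (log2 fold change -2.52 with SE 0.26, adjusted p = 0.00419). The rest were ccg-8, ccg-15 and rca-1, with log2 fold changes of -1.69, -1.01 and -1.53. In wild type 6 were lower and 0 higher (5.1% and 1.47% of all tested genes), with ccg-9 at -2.92. The number lower in ve-1 was 11, 2, 1 and 4 without iron-free replicate 1, iron-free replicate 2, standard replicate 1 and standard replicate 2; the call that held without standard replicate 1 was ccg-9.

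Of 14 genes of light sensing and the clock, 4 were called lower and 0 higher (11.6% and 10.9% of all tested genes), with a median log2 fold change of -0.80. Total-count scaling gave 2 lower and 1 higher, and the 4 ve-1 libraries alone 7 lower. The opsin gene nop-1 was at 114 and 41.9 CPM without iron, against 711 and 391 CPM with it (log2 fold change -2.82 with SE 0.56, adjusted p = 0.0168). Transcripts of the clock gene frq were at 98.3 and 109 CPM, against 224 and 234 CPM (log2 fold change -1.14 with SE 0.27, adjusted p = 0.0247), and the gene of its partner helicase, frh, at 42.3 and 53.0 CPM, against 78.3 and 107 CPM (log2 fold change -0.96 with SE 0.23, adjusted p = 0.026). The phytochrome gene phy-1 fell too (log2 fold change -0.98, adjusted p = 0.0471). The media did not overlap in these 4 genes. The number lower was 1, 0, 0 and 1 without iron-free replicate 1, iron-free replicate 2, standard replicate 1 and standard replicate 2, and 6 without either wild-type iron-free library. Of 7 carotenoid genes 0 were called by edgeR, 3 had an unadjusted p under 0.05, and DESeq2 called 1 higher and 1 lower. Wild type had 0 called in both lists.

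Sexual development had 4 of 22 genes called lower and 2 higher (11.6% and 10.9% of all tested genes), and with total-count scaling 3 lower and 4 higher. The largest fall was in poi-2, known from transcripts of sexual tissue, at 3.41 and 0.161 CPM in ve-1 without iron, against 633 and 71.3 CPM with it (log2 fold change -7.73 with SE 1.81, adjusted p = 0.0258). The pheromone receptor gene pre-2 was at 0.94 and 0.803 CPM, against 76.7 and 2.2 CPM (log2 fold change -5.49 with SE 1.49, adjusted p = 0.0389), where standard replicate 1 alone stood far above the rest. The ascus development gene asd-3 was at 0.94 and 0.0803 CPM, against 7.81 and 4.88 CPM (log2 fold change -3.73 with SE 0.98, adjusted p = 0.0343). The iron-free libraries were low in all 3, and standard replicate 1 was the highest of the 4 in each. Among the rises was msh4, a meiotic gene, at 16.4 and 9.32 CPM against 1.53 and 2.36 CPM (log2 fold change 2.72). The number lower was 2, 0, 0 and 3 without iron-free replicate 1, iron-free replicate 2, standard replicate 1 and standard replicate 2, and the number higher 1, 0, 0 and 0.

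In hyphal fusion and vegetative incompatibility, 5 of 19 genes were called higher and 0 lower (10.9% and 11.6% of all tested genes). The gene tol, which acts in mating-type incompatibility, was at 4.58 and 4.42 CPM in ve-1 without iron, against 0.139 and 0.472 CPM with it (log2 fold change 3.85 with SE 0.67, adjusted p = 0.0123). The transcription factor gene vib-1 was at 50.4 and 89.8 CPM, against 13.2 and 16.7 CPM (log2 fold change 2.23 with SE 0.45, adjusted p = 0.018), and the fusion gene ham-6 at 41.1 and 53.8 CPM, against 18.3 and 19.5 CPM (log2 fold change 1.33 with SE 0.33, adjusted p = 0.0291). These lay higher in both iron-free libraries, and wild type was above ve-1 in each medium, with vib-1 at 411 and 498 CPM without iron and 122 and 269 CPM with it. The list median was 0.18, near that of all genes. The other members called were un-24 and the NADPH oxidase gene nox-2 (log2 fold change 0.89). The number higher was 4, 0, 0 and 1 without iron-free replicate 1, iron-free replicate 2, standard replicate 1 and standard replicate 2.

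Of 26 genes of the fungal wall, 6 were called lower and 1 higher (11.6% and 10.9% of all tested genes), and with total-count scaling 4 lower and 2 higher. The wall protein gene ncw-4 was at 431 and 216 CPM without iron, against 2538 and 2419 CPM with it (log2 fold change -2.94 with SE 0.48, adjusted p = 0.0113). The related gene ncw-6 was at 239 and 63.9 CPM, against 1681 and 1475 CPM, and ncw-5 at 151 and 259.5 CPM, against 977 and 741 CPM (log2 fold changes -3.38 and -2.06). The 1 rise was in acw-12 (199 and 397 CPM, against 57.2 and 31.3 CPM; log2 fold change 2.75). Libraries did not overlap between the media in any of these 4. The number lower was 5, 1, 0 and 3 without iron-free replicate 1, iron-free replicate 2, standard replicate 1 and standard replicate 2.

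Of 75 tested genes of plant cell wall degradation, 13 were called lower and 5 higher (11.6% and 10.9% of all tested genes). The cellodextrin transporter gene cdt-2 was at 3.64 and 4.9 CPM, against 32.9 and 32.9 CPM (log2 fold change -2.93 with SE 0.38, adjusted p = 0.00821), and was also the 1 of 3 sugar transport genes called in ve-1. The hydrolase genes gh35-2, gh28-2 and gh13-4 fell with log2 fold changes of -2.73, -2.69 and -2.53. In wild type cdt-2 was at 5.05 and 2.34 CPM without iron and 245 and 343 CPM with it, so that in standard medium it was lower in ve-1 than in wild type and in iron-free medium low in both. Total-count scaling gave 10 higher and 9 lower, and the number lower was 14, 3, 0 and 5 without iron-free replicate 1, iron-free replicate 2, standard replicate 1 and standard replicate 2.

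The other lists had 1 or a few called members, to be read against the 10.9% higher and 11.6% lower of all tested genes. Of 12 heat shock genes, 2 were lower, hsp98 and hsp70-1 (log2 fold changes -1.37 and -1.28), and of 7 ribosomal protein genes 2, crp-3 and crp-4 (-0.85 and -0.76); with total-count scaling 0 were lower in both lists. Of 30 proteasome genes 1 was lower, rpn-4 (163 and 101 CPM, against 761 and 644 CPM), whose yeast counterpart is a transcription factor of proteasome genes. Histone genes hH2A, hH2B and hH2Az were higher (3 of 9; log2 fold changes 1.00, 1.14 and 0.73). Of 29 genes of mitochondrial protein import, 6 were higher, among them tim44 and tim22 (1.31 and 1.28), and 1 was lower, tim9 (-1.95). Total-count scaling gave 10 import genes and 5 histone genes higher. The vacuolar proton pump had 3 of 14 genes higher, vma-9, vma-3 and vma-16 (1.29, 0.88 and 0.79), and the peroxisome list 1 of 20 higher, pex5, and 2 lower, pex24 and pex31. Of 6 quinate genes 0 were called (1 at an unadjusted p under 0.05, 0 by DESeq2), as was the 1 cytochrome P450 gene, cyp450-31 (adjusted p = 0.875; 0 by DESeq2). With the replicate block 0 histone, 1 vacuolar pump and 2 import genes were higher and 0 ribosomal protein genes lower, and without standard replicate 1 0 genes of these lists were called.

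**Figure D4:**
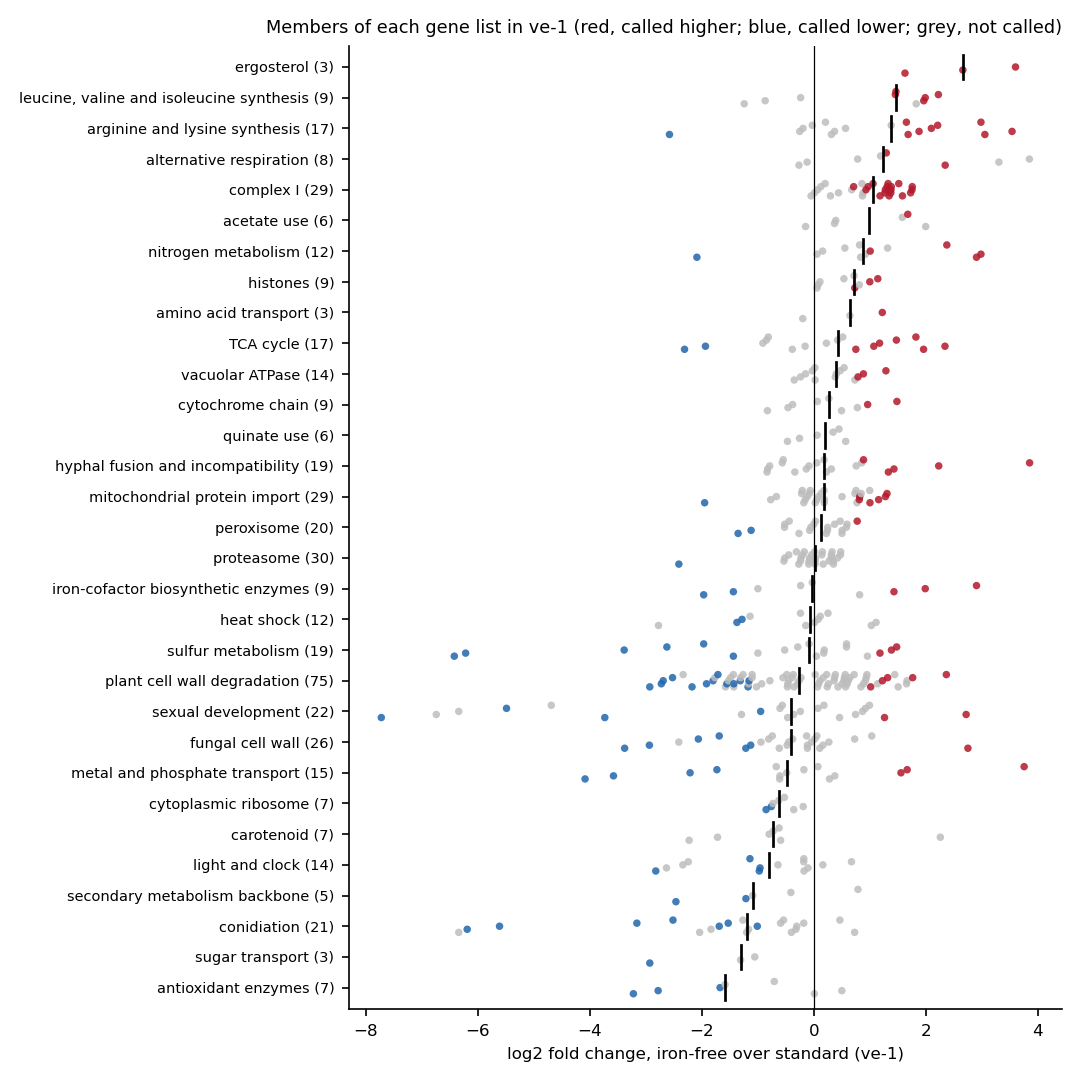
Log2 fold change of ve-1 iron-free over ve-1 standard cultures for the members of each gene list with at least 3 tested genes, ordered by median, with the number tested in brackets. Each point is a gene, red if called higher, blue if called lower and grey if not called, and the black bar is the list's median; ergosterol and amino acid synthesis lie at the top, antioxidant and conidiation genes near the bottom.

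Among the 5 tested backbone genes of secondary metabolism, 2 were lower and 0 higher (11.6% and 10.9% of all tested genes), the polyketide synthase genes pks-3 (51.0 and 74.6 CPM without iron, against 439 and 254 CPM with it; log2 fold change -2.46 with SE 0.48, adjusted p = 0.0165) and pks-1 (23.5 and 26.1 CPM, against 66.2 and 48.9 CPM; log2 fold change -1.21 with SE 0.25, adjusted p = 0.0175). Both were lost without standard replicate 1, iron-free replicate 1 or iron-free replicate 2. Of the largest falls outside the lists, the ultraviolet damage endonuclease gene mus-18 was at 33.2 and 19.3 CPM, against 522 and 439 CPM (log2 fold change -4.20 with SE 0.79, adjusted p = 0.0148), and mig-12 at 19.3 and 36.0 CPM, against 559.5 and 1279.9 CPM (log2 fold change -5.05 with SE 1.24, adjusted p = 0.0291). The 3 largest falls by the naming rule were in genes with no symbol. NCU05883 had 0 and 0 counts in iron-free cultures, against 2375 and 1064 counts in standard medium, at least 1741-fold lower when the iron-free group is set at 3 counts over its 2 libraries (adjusted p = 0.00235). NCU07820 had 0 and 0 counts, against 1665 and 486 counts, at least 1078-fold lower (adjusted p = 0.011), and its neighbour in number, NCU07819, had 1 and 0 counts, against 6551 and 1728 counts (adjusted p = 0.00256). In wild type all 3 were at or below 0.151 CPM in both media. Such floors cover counting error only.

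Falls also came in runs of neighbouring genes. Among annotated neighbours, 8 runs of at least 4 genes were all called in the same direction with at least a 2-fold change, and all 8 were lower without iron. The longest held 12 genes from NCU05761 to NCU05768, the locus of poi-2, with a summed level of 9.75 and 4.02 CPM in ve-1 without iron, against 1191 and 164 CPM with it. Its standard libraries differed widely, with replicate 1 the higher, as for mfa-1. A run of 6 genes from NCU05883 to NCU05888 summed to 3.29 and 3.13 CPM without iron, against 2386 and 1013 CPM with it, and to at most 15.7 CPM in any wild-type library. The other 6 runs held 4 genes each and included those of ars-1, con-6 and the hydrolase gene gh6-2. The chance of such runs was not tested.

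Set beside wild type, the iron response of ve-1 called more genes, 22.4% against 6.57% of those tested. Wild type had 119 genes higher and 414 lower, from a contrast that shares no library with that of ve-1. Of the genes higher in ve-1, 46 were also higher in wild type, which is 5.22% of the ve-1 and 38.7% of the wild-type rises. Of the genes lower in ve-1, 206 were also lower in wild type, 21.9% of the ve-1 and 49.8% of the wild-type falls, and 5 genes were called in opposite directions. Among ve-1 calls 79.9% had the same sign in wild type, against 65.1% of all tested genes. Across the 8118 genes, which are not independent replicates, the fold changes of the 2 genotypes correlated at 0.45 (Pearson) and 0.43 (Spearman). A call in 1 genotype and not in the other does not show that the responses differ; the difference itself passed for 20 genes (0.246%), 7 higher (0.0862%) and 13 lower (0.16%) in ve-1 relative to wild type, with 1650 at an unadjusted p under 0.05 and 601 called by DESeq2. That number was 0 without iron-free replicate 1 of ve-1 or replicate 2 of wild-type iron-free cultures, 1 without iron-free replicate 2 of ve-1, 4 without standard replicate 1 of ve-1, and 2 and 3 without replicates 1 and 2 of wild type in standard medium.

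**Figure D5:**
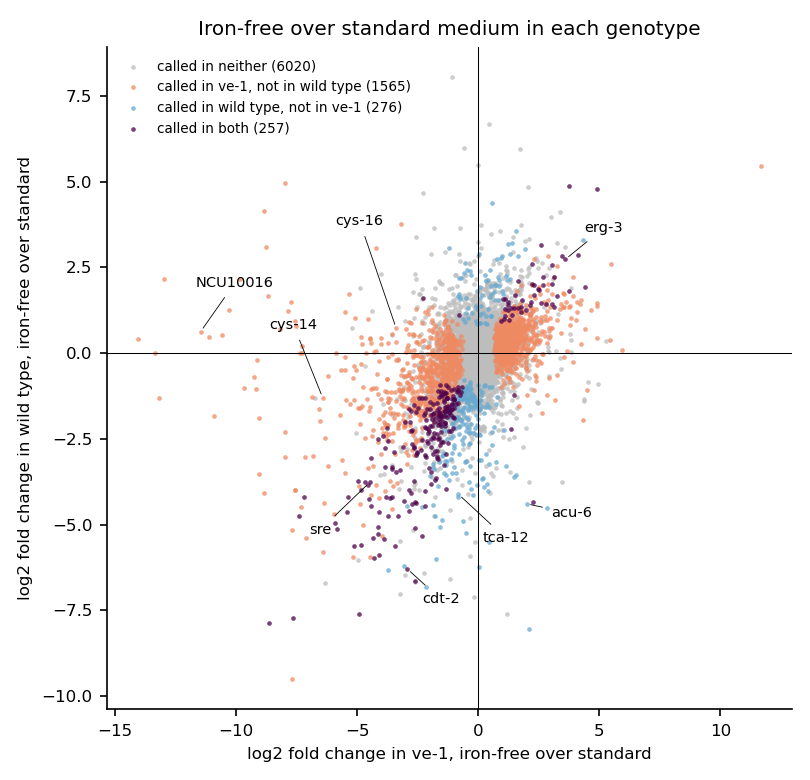
Log2 fold change of iron-free over standard medium in ve-1 (horizontal axis) and in wild type (vertical axis) for 8118 genes, with 257 called in both genotypes, 1565 in ve-1 and not in wild type, 276 in wild type and not in ve-1, and 6020 in neither. Genes called in both lie mainly in the lower left and upper right; cys-14, cys-16 and NCU10016 lie to the left with wild-type values between -1.30 and 0.72.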

How the data were processed

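RNA was poly(A)-selected and libraries were made with a stranded kit, per the labels' protocols. The submitters' processing notes name FastQC, Trim Galore, STAR and DESeq2; which counter, genome build, annotation and strand setting were used is not given in the sources used here. Raw counts per gene were deposited by the authors for each library. They also deposited tables of their comparisons, with normalized signal as group means, a log2 fold change and an adjusted p-value per listed gene, and only the table for ve-1 was used, for its sign. Gene symbols came from a RefSeq table of assembly NC12, which matched 9729 of 9730 genes, with 1089 of the tested genes having a symbol; its coordinates served for neighbours and overlaps alone.

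Counts were filtered with filterByExpr (minimum count 10, minimum total 15), scaled by TMM and fitted with the robust quasi-likelihood test of edgeR 4.0.16 in R 4.3.3, over 8 libraries and 4 groups, which leaves 4 residual degrees of freedom. Contrasts were iron-free minus standard in ve-1, the same in wild type, and their difference, with Benjamini-Hochberg adjustment over all tested genes. No replicate block was used in the main fit. The fitting was tested on simulated data with 100 genes changed 2-fold and 100 changed 8-fold in ve-1 without iron. It recovered 8% of the 2-fold and 94% of the 8-fold changes, and called 4 unchanged genes. A gene that was not called may thus still have changed by 2-fold. The changed genes were drawn from the better-counted ones, and all others had the same mean in every group. In the data 22.4% of genes were called in ve-1, so the simulated rates need not hold there. Alternatives were DESeq2 1.42.0, other scalings, no filter, a replicate block, separate fits per genotype and each library left out. CPM is not corrected for gene length, so levels were not compared between genes. A fold against a group at 0 used a floor of 3 counts over the group.

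Named genes were, in each direction, the 10 largest changes with a symbol and the 3 largest with or without one, taken from called genes whose media did not overlap and whose higher group averaged at least 50 CPM. Up to 4 called members of each list were named with no such limits. All tested members of the lists for iron regulation, alternative respiration, antioxidant enzymes and velvet, the largest called genotype differences with a symbol, and ve-1 and matA-1 were added. The comparison, the gene lists and the rule were chosen with earlier results of these data known. Genes outside the rule, such as cit-1, acu-3, acu-6, acu-9, cyc-1, mfa-1, ccg-4, nuo51 and NCU03376, were chosen after their values were seen. Lists were matched by symbol, so a list can hold genes of another role. Duplicate cultures are stated, but not whether they were grown apart, so p-values measure the spread between these libraries, which may be in part technical. The velvet list held ve-1 itself, given among the label checks.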

Additional observations from a re-analysis of the deposited data

Results flagged for a closer look

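For 11 of the 20 genes whose iron response differed between ve-1 and wild type, the difference of the log2 fold changes was at least 4 in size. Of these, 10 carry no symbol in the table used, and each passed edgeR's quasi-likelihood test of the difference itself with 2 libraries per group. In 8 of them the response of ve-1 was the lower one.

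The largest difference was in NCU10016, which had 0.352 and 0.161 CPM in ve-1 without iron and 953 and 497 CPM in ve-1 with it, and 0.541 and 0.117 CPM in wild type without iron and 0.289 and 0.151 CPM in wild type with it (-12.09, SE 1.31, adjusted p = 0.0341). NCU05887, in the run of 6 neighbouring genes given above, had 0.47 and 0.402 CPM in ve-1 without iron and 809 and 305 CPM in ve-1 with it, and 1.98 and 3.04 CPM in wild type without iron and 1.01 and 1.06 CPM in wild type with it (-11.54, SE 0.87, adjusted p = 0.0147). In both genes the ve-1 standard libraries stood far above the other 6. The same order held for NCU01057, with 1.29 and 0.161 CPM without iron and 746 and 368 CPM with it in ve-1 (difference -8.67, SE 0.98, adjusted p = 0.0341), for NCU07610, with 3.41 and 8.28 CPM without iron and 1317 and 839.9 CPM with it (difference -8.29, SE 0.72, adjusted p = 0.0147), for NCU10015, with 30.0 and 28.8 CPM without iron and 839 and 449 CPM with it (difference -4.86, SE 0.47, adjusted p = 0.017), and for NCU01055, with 1.64 and 2.65 CPM without iron and 106 and 53.8 CPM with it (difference -4.47, SE 0.59, adjusted p = 0.045).

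In NCU05188 the ve-1 iron-free libraries stood apart instead. It had 1.41 and 0.803 CPM in ve-1 without iron and 36.5 and 26.3 CPM in ve-1 with it, and 119.7 and 109 CPM in wild type without iron and 129 and 158 CPM in wild type with it, so that ve-1 was below wild type in both media and lowest without iron (-4.52, SE 0.43, adjusted p = 0.017). The sulfur gene cys-16 has its values above and a difference of -4.11.

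In 3 genes wild type fell without iron and ve-1 was not called lower. NCU04482 had 18.1 and 27.0 CPM in ve-1 without iron and 4.32 and 5.03 CPM in ve-1 with it, and 32.5 and 39.6 CPM in wild type without iron and 374 and 1081 CPM in wild type with it (6.61, SE 0.75, adjusted p = 0.0341). NCU00175 had 15.5 and 26.4 CPM in ve-1 without iron and 12.1 and 19.5 CPM in ve-1 with it, and 209 and 129 CPM in wild type without iron and 2585 and 2924 CPM in wild type with it (4.44, SE 0.57, adjusted p = 0.0444), and NCU06974 had 41.7 and 40.5 CPM in ve-1 without iron and 57.3 and 69.4 CPM in ve-1 with it, and 6.22 and 5.61 CPM in wild type without iron and 212 and 144 CPM in wild type with it (4.28, SE 0.36, adjusted p = 0.0147). These calls were also sensitive to single libraries: over the 8 fits that each leave out a library, NCU06974 and NCU07610 were called in 4, NCU05887 and NCU10015 in 3, NCU04482 and NCU05188 in 2, NCU10016, NCU01055, NCU01057 and cys-16 in 1, and NCU00175 in 0.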

How the results depend on the processing

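No called gene among those named changed sign under any alternative run, while medians of lists near 0 did, as given above. The 1822 calls in ve-1 ranged from 59 to 1756 over the fits that leave out a library each, with 373 without ve-1 iron-free replicate 2, 59 without standard replicate 1 of ve-1 and 554 without its replicate 2. The other scalings, no filter, DESeq2 (2364) and the 4 ve-1 libraries alone (1740) stayed within 1.5 times. The 533 calls in wild type ranged from 7 to 645 with a library left out (229 and 233 without ve-1 standard replicates 1 and 2, 138 and 7 without wild-type iron-free replicates 1 and 2, 86 without wild-type standard replicate 1), and were 125 with the 4 wild-type libraries alone, 1249 with DESeq2 and 1290 with total-count scaling (1003 higher and 287 lower, a median shift of 0.53). The 20 genotype differences ranged from 0 to 22 with a library left out, and were 601 with DESeq2 and 35 with no filter on low counts. Of the 99 named calls in ve-1, DESeq2 lost 0 and total-count scaling 7. Leaving out a library leaves its group with 1 sample, which is assumed to vary like the other groups.

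The main fit has no pairing. Same-numbered libraries of the 2 media did not deviate together (correlation over 8118 genes of -0.00239 in ve-1 and 0.0565 in wild type). The number that the deposited files share between them may still mark a strain, which the labels do not say; if it does, the fit with the replicate block is the one to read. Whether the ve-1 libraries, whose matA-1 counts differ widely at the same number, match their labels was not tested beyond ve-1 itself. A replicate block gave 1235 calls in ve-1, 326 in wild type and 14 genotype differences. With 2 libraries per group and 4 residual degrees of freedom, modest changes are at the limit of what these data can call.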

Other observations

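In ve-1, 14 called genes were under 1 CPM in both iron-free libraries and averaged at least 50 CPM in standard medium, and 0 showed the opposite pattern. These limits were chosen after the values were seen. Of the 14, 13 were under 5 CPM in all 4 wild-type libraries, 0 carry a symbol, and 3 (NCU05883, NCU07820 and NCU09039) had 0 counts without iron. They include 5 members of the run from NCU05883 to NCU05888, and NCU07819, NCU07820 and NCU07821.

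In the other direction NCU03376 had 566 and 378 counts in ve-1 without iron, against 0 and 0 counts with it, at least 218-fold higher when the standard group is set at 3 counts over its 2 libraries (adjusted p = 0.0113; with standard replicate 1 left out, adjusted p = 0.072). In wild type it had 37 and 149 counts without iron and 1 and 2 counts with it.

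The iron-free and standard ve-1 means were both set against the same wild-type level, averaged over the media. The iron-free mean was the nearer for 59.3% of the called genes, close to the 56.9% of all tested genes. Among the 1822 called genes, the 2 standard libraries lay more than 2-fold apart for 158 and the 2 iron-free libraries for 241.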
